A study of Mus musculus with 10 samples.

Results

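The genes for the RNA polymerases and the general transcription machinery were examined for binding of the histone chaperone SET in mouse embryonic stem cells. Members were the protein-coding genes whose symbols start with Polr1, Polr2, Polr3, Gtf2 or Gtf3, or with Taf or Med followed by a digit, together with Tbp. The rule found 106 genes in the mouse gene table. The 14 on chromosomes 8 and 11 were not analysed here, which left 92 of 19235 protein-coding genes. A gene was counted as having a peak when a peak overlapped the 1 kb on either side of one of its ends.

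The study expressed HA-tagged SETα or SETβ, the isoforms of SET, from a doxycycline-inducible transgene in KH2 embryonic stem cells, a line built to take up a single inducible transgene. The transgene was induced with 1 µg/ml doxycycline for 24 h, either in SET KO cells (SETa addback and SETb addback) or in cells with endogenous SET (SETa overexpression and SETb overexpression). An antibody to HA was used to precipitate chromatin from all 4 groups after crosslinking by DSG, which links proteins to each other, and formaldehyde. Each group had 2 libraries from a cell line of its own, so line and group cannot be told apart, and the labels do not say whether the libraries came from separate cultures. Cells were grown on mouse feeder fibroblasts, which were depleted before the harvest. SET KO samples that received no doxycycline were left out and are not analysed here, and no value from cells without the tagged protein stands beside these.

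Eukaryotic nuclei divide transcription among 3 RNA polymerases. Polymerase I makes the large ribosomal RNA precursor and uses the factor SL1, which consists of TBP and several TAF proteins. Polymerase II makes messenger RNA and starts with TFIIA, TFIIB, TFIID, TFIIE, TFIIF and TFIIH, with Mediator linking activators to the polymerase. Polymerase III makes transfer RNA and other short RNAs and is recruited through TFIIIC and, at genes for 5S ribosomal RNA, TFIIIA. The genes of this machinery are themselves transcribed by polymerase II, and most are active in every dividing cell. SET binds histones and inhibits histone acetylation and the phosphatase PP2A.

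Lists of single libraries held 2518 to 22176 peaks in addback and 1343 to 7675 in overexpression. The lists of peaks that passed the authors' irreproducible discovery rate (IDR) comparison of both replicates were shorter. For addback they held 530 (SETα) and 485 (SETβ) peaks, and for overexpression 127 (SETα) and 101 (SETβ). Read totals are not part of these lists, so the sequencing depth behind each call is unknown here. Chromosome 6 held 70.4% and 63.9% of the peaks of the SETα overexpression libraries and 5.97% to 9.20% of those of the other libraries. Only Polr1a and Med21 among the members lie on that chromosome, and neither had an overexpression peak.

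In SET KO cells, peaks were listed at a majority of the machinery genes with SETα and at fewer with SETβ. SETα addback replicate 1 had a peak at 52 of 92 genes, 56.5% (Wilson 95% interval 46.3% to 66.2%), against 34.3% of all protein-coding genes. Replicate 2 had one at 54 genes, 58.7% (48.5% to 68.2%), against 31.8%. With SETβ the libraries differed more from each other. Replicate 1 had a peak at 21 genes, 22.8% (15.4% to 32.4%), against 8.41% of all protein-coding genes, and replicate 2 at 36 genes, 39.1% (29.8% to 49.3%), against 18.4%. The share of the machinery genes was thus above the share of all genes in each of the 4 addback libraries, by 1.65 to 2.72 times. Among genes with a CpG-rich promoter alone, the mean ratio fell from 1.75 to 1.07 with SETα and from 2.42 to 1.36 with SETβ, and SETα replicate 1 had no excess (55.1% against 55.2%). The group means were 53 ± 1.41 genes for SETα and 28.5 ± 10.6 genes for SETβ (SD, n = 2 each). A peak in both replicates was found at 35 genes with SETα, 38.04% against 21.97% of all genes, and at 17 genes with SETβ, 18.5% against 5.85%.

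In cells with endogenous SET, almost no machinery gene had a peak. SETα overexpression replicate 1 had a peak at 0 of 92 genes, which allows a share of up to 3.26% when 3 genes are taken as the most that a count of 0 allows (the Wilson 95% upper limit is 4.01%), against 0.983% of all protein-coding genes. Replicate 2 had one at 2 genes, 2.17% against 1.9%. SETβ overexpression replicate 1 again had 0 genes, against 0.338%, and replicate 2 had 4, or 4.35% against 1.85%. No gene had a peak in both replicates of an overexpression group. Chromosome 6, which holds most SETα overexpression peaks, raises the share of all genes there: without it the SETα shares were 0% against 0.105% and 2.22% against 0.867%. The counts of 0 to 4 genes are too few to place the machinery genes above or below all genes in overexpression.

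**Figure D1:**
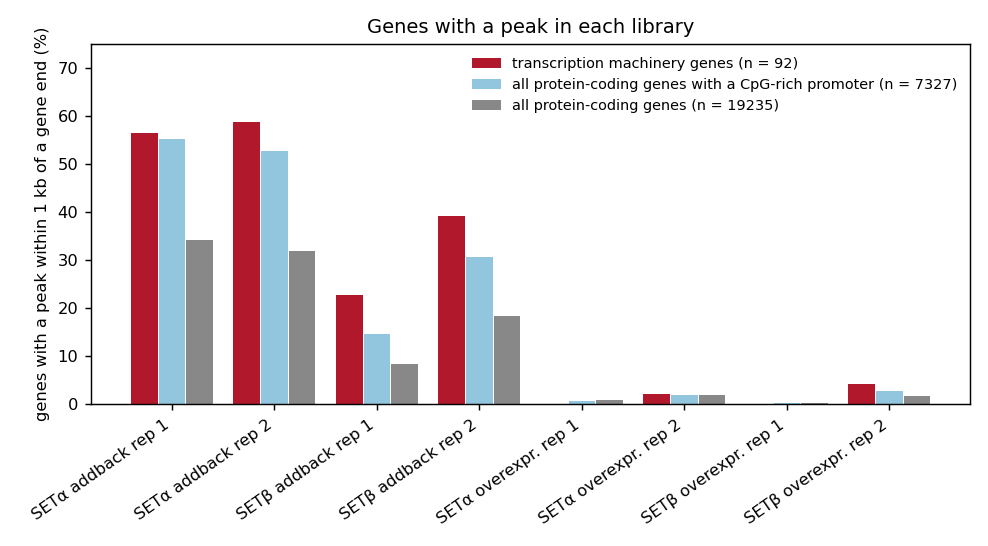
Bars give, for each of the 8 libraries on the x axis, the percent of genes with a peak within 1 kb of a gene end (y axis, %) among the 92 transcription machinery genes, the 7327 protein-coding genes with a CpG-rich promoter and all 19235 protein-coding genes. In addback the machinery genes reach 56.5% and 58.7% (SETα) and 22.8% and 39.1% (SETβ), and in overexpression at most 4.35%.

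The IDR lists, which keep the peaks that both replicates rank alike, named 14 machinery genes in SET KO. The SETα addback list had a peak at 11 of 92 genes, 12.0% (Wilson 95% interval 6.81% to 20.2%) against 2.78% of all protein-coding genes. The SETβ addback list had one at 13, 14.1% (8.45% to 22.7%) against 2.62%. Both lists held 10 genes (2.18% of all genes were in both), which are 90.9% of the SETα genes and 76.9% of the SETβ genes. In overexpression the IDR lists held 0 machinery genes with SETα, against 0.0676% of all genes, and 0 with SETβ, against 0.026%. Intervals and limits cover counting error only.

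The 10 genes in both addback lists came from several complexes: Polr3b of polymerase III, Gtf2h2 and Gtf2h4 of TFIIH, Tbp and Taf4b of TFIID, Taf1b of SL1, Gtf3c3 and Gtf3c5 of TFIIIC, and Med17 and Med23 of Mediator. The summits of the SETα and the SETβ peak lay between 2 and 72 bp apart, and the peaks overlapped at each of the 10 genes. Polr2i was in the SETα list alone. Gtf3c4, Polr1b and Med4 were in the SETβ list alone. Each of these 3 also had a peak in both SETα addback libraries, whereas Polr2i had none in either SETβ addback library.

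Med23, a subunit of the Mediator tail, had the strongest peak of all members. Its −log10 p, the peak caller's own value, was 66.4 and 74.2 for SETα and 81.8 and 77.6 for SETβ in the addback libraries. The fold enrichment over the local background was 17.2, 21.8, 16.3 and 17.1 in the same order. It ranked 19 of 530 in the SETα IDR list and 16 of 485 in the SETβ list, at chr10:24869606-24870375 in the former. All 4 addback libraries thus placed it near the top of their lists, and no overexpression library listed it. Med17, a subunit of the Mediator head that holds the complex together, had −log10 p of 15.0 and 25.0 with SETα and 36.2 and 26.5 with SETβ. Med4, of the Mediator middle module, had low values of 6.88 and 5.70 with SETα and 9.24 and 8.97 with SETβ.

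Among polymerase subunits the strongest peak was at Polr3b, which encodes the second largest subunit of polymerase III. Its −log10 p was 39.4 and 48.1 with SETα and 70.0 and 49.9 with SETβ in the addback libraries. Polr1b, for the corresponding subunit of polymerase I, had 5.36 and 16.1 with SETα and 9.36 and 12.0 with SETβ, and the value of SETα replicate 1 ranked 6552 of 22176. Polr2i, a small subunit of polymerase II, had 10.0 and 9.46 with SETα. Its gene is short and crowded: the peak covered its start and entered the 1 kb beside its other end and beside ends of Tbcb and Ovol3, so it cannot be assigned to one of the 3 genes.

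TFIIH opens promoter DNA and also works in nucleotide excision repair. Gtf2h2, whose product holds the helicase XPD in the complex, had −log10 p of 35.6 and 43.7 with SETα and 53.6 and 39.6 with SETβ. Gtf2h4, whose product anchors the other helicase, XPB, had 38.2 and 52.3 with SETα and 40.6 and 25.7 with SETβ. Tbp, for the TATA-binding protein that all 3 polymerases use, had 15.8 and 34.8 with SETα and 51.1 and 32.1 with SETβ. Taf4b, for a TFIID subunit related to Taf4, had lower values of 9.42 and 12.2 with SETα and 8.72 and 7.67 with SETβ. Taf1b, for an SL1 subunit that contacts polymerase I, had 23.3 and 18.3 with SETα and 17.8 and 16.7 with SETβ.

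TFIIIC recognises the promoters inside transfer RNA genes. Its subunit gene Gtf3c3 had −log10 p of 23.03 and 20.9 with SETα and 52.9 and 34.0 with SETβ. Gtf3c5 had 20.3 and 26.01 with SETα and 35.4 and 15.4 with SETβ. Gtf3c4 had 12.6 and 15.975 with SETα and 11.6 and 13.2 with SETβ, and its peak also lay within 1 kb of an end of Ddx31, whose start faces it. These 3 genes had a peak in all 4 addback libraries, and the other TFIIIC genes, Gtf3c1, Gtf3c2 and Gtf3c6, in 1 SETα library each. Among the IDR genes with a peak in all 4 addback libraries, both SETβ values were above both SETα values at Med4, Med17, Med23, Polr3b and Gtf3c3, both SETα values were above both SETβ values at Taf1b and Taf4b, and the values overlapped at the others. Values of different libraries are not on a common scale.

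The promoter sequences of the 6 genes with the strongest peaks in both addback IDR lists and a listed start are shown, since both isoforms were found there and the IDR peaks cover the stretch before the start. Each run gives the 250 bases before the listed start, 5′ to 3′ on the strand of the gene, from RefSeq with build GRCm38.p6. The listed start of Gtf2h2 lies inside its annotated gene, whose boundary on that side is chr13:100492609, so most of its run is within the gene. Capitals mark matches on either strand to the motifs named after the sequences.
Polr3b, chr10:84622048-84622297, plus strand: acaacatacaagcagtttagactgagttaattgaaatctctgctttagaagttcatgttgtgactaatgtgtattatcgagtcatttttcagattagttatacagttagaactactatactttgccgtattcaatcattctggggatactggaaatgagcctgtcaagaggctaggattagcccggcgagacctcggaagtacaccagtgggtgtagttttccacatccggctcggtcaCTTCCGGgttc
Gtf2h2, chr13:100492395-100492644, minus strand: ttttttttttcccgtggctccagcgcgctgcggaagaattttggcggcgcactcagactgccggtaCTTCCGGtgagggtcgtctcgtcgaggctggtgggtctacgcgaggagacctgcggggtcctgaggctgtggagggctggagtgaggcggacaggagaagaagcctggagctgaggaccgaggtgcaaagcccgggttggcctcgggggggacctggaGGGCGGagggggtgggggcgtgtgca
Gtf2h4, chr17:35673744-35673993, minus strand: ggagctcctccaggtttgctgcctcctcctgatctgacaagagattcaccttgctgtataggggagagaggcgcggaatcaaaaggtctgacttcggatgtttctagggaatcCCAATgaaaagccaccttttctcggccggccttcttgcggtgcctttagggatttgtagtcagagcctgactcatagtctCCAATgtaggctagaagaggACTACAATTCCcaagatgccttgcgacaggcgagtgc
Gtf3c3, chr1:54439027-54439276, minus strand: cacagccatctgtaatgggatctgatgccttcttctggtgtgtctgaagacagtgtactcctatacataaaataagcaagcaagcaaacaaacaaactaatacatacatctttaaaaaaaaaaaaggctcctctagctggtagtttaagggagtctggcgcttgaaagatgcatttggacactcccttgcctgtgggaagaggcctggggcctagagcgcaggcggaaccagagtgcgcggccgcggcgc
Tbp, chr17:15499638-15499887, plus strand: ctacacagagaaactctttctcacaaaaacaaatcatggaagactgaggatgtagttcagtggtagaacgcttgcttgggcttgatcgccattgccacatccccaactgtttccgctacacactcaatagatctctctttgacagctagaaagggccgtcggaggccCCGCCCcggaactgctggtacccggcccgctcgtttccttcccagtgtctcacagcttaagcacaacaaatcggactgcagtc
Med17, chr9:15279907-15280156, minus strand: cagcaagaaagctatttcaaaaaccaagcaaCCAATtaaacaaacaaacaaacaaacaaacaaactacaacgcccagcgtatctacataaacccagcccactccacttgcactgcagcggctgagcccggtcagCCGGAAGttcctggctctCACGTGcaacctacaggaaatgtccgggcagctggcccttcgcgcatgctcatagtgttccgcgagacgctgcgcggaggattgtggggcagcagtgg

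Polr3b holds CTTCCGG, the reverse complement of the ETS motif CCGGAAG, close to the end of its stretch, and Gtf2h2 holds the same letters farther upstream, and a GC box nearer to the end. Gtf2h4 holds a pair of CCAAT boxes and the longer ZNF143 motif, which is the last run of capitals in its sequence. Tbp has a GC box on the opposite strand, and Med17 has an ETS motif, a CCAAT box and an E-box. Gtf3c3 matched none of the 10 motifs. GC content over these 250 bases ran from 42.4% in Polr3b to 66% in Gtf2h2. The IDR summits lay 3 and 34 bp after the listed start of Polr3b with SETα and SETβ. They lay 71 and 45 bp before that of Gtf2h4 and 32 and 28 bp before that of Tbp. At Gtf2h2 they lay 211 and 218 bp before the listed start, which is inside the annotated gene, but 4 and 3 bp from the gene's boundary. Letters that match a motif are a description of the sequence and not a measured binding site.

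A peak in all 4 addback libraries was listed at 17 genes, 18.5% against 5.15% of all protein-coding genes. Beside 13 of the IDR genes, these were Polr2j, Polr3c, Taf8 and Taf12. The last 4 had a −log10 p of at most 7.33 in any library, a range that Med4 and Polr1b of the IDR genes also reached, with 6.88 and 5.70 at Med4 in the SETα replicates and 5.36 at Polr1b in SETα replicate 1. A peak in at least 1 addback library was listed at 75 genes (47.5% of all genes had one). The machinery genes had a peak in 0, 1, 2, 3 and 4 addback libraries in 17, 28, 23, 7 and 17 cases, or 18.5%, 30.4%, 25.0%, 7.61% and 18.5%. All protein-coding genes had 52.5%, 19.6%, 15.5%, 7.23% and 5.15%. The set therefore held fewer genes without a peak, and more genes with a peak in every addback library, than the genome at large.

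**Figure D2:**
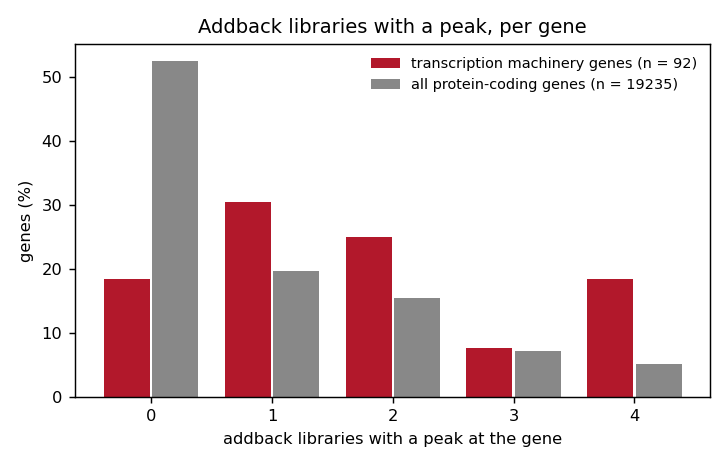
Bars give the percent of genes (y axis, %) with a peak in 0 to 4 of the addback libraries (x axis) for the 92 machinery genes and all 19235 protein-coding genes. A peak in all 4 was listed at 18.5% of the machinery genes and 5.15% of all genes, and a peak in none at 18.5% and 52.5%.

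By complex, each had at least 1 gene with an addback peak except TFIIE, whose 1 gene had none, and TFIIA and the TFII-I family had such a gene in 1 of 3 cases each. Over all protein-coding genes, 47.5% had a peak in at least 1 addback library and 5.15% in all 4. Of 26 polymerase subunit genes, 23 had a peak in at least 1 addback library and 4 in all 4 (Polr1b, Polr2j, Polr3b and Polr3c). Of the 5 genes for subunits that all 3 polymerases share, 4 had a peak in some addback library, none in all 4 and none in SETβ replicate 1. Of the 12 general factors of polymerase II, 9 had a peak in some addback library and 2, both of TFIIH, in all 4. The 5 TFIIH genes under a Gtf2h symbol had a peak in 3 and 3 cases in the SETα replicates and in 2 and 5 in the SETβ replicates. The TFIIA, TFIIB, TFIIE and TFIIF genes had none in either SETβ library; over all genes the shares were 34.3% and 31.8% with SETα and 8.41% and 18.4% with SETβ.

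TBP and the TAF genes, 22 in all, had a peak in some addback library in 17 cases (77.3%, against 47.5% of all genes) and in all 4 in 5 (22.7%, against 5.15%): Tbp, Taf1b, Taf4b, Taf8 and Taf12. The 7 genes for TFIIIA and TFIIIC each had a peak somewhere in addback, and 3 had it in all 4 libraries. In Mediator 18 of 22 genes had a peak (81.8%) and 3 had it in all 4 libraries (13.6%), namely Med4, Med17 and Med23. The kinase module, a detachable part of Mediator that represses or tunes transcription, had a peak in both SETα libraries at all 3 of its listed genes, Med12, Med12l and Med13l, where 21.97% of all genes had a peak in both. The SETα replicate 2 peaks of Med12l and Med13l lay 922 and 981 bp from a gene end, near the edge of the window. Of the module's genes under other names, Ccnc also had a peak in both SETα libraries, Cdk8 in replicate 2 alone and Cdk19 in replicate 1 alone. The TFII-I family, with a peak at 1 of 3 genes, consists of sequence-specific factors rather than core factors. With classes of 3 to 26 genes, the shares of single classes were not compared with each other by a test.

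No peak was listed at 17 genes in any addback library. Among them were Med10, Med21, Med22, Med27, Polr2d, Polr2k, Gtf2a1l, Gtf2a2, Gtf2e1, Gtf2i, Gtf2ird2, Taf1, Taf2, Taf7l, Taf7l2 and Taf11. None of the 17 had an overexpression peak either. Taf1, the largest TFIID subunit, is among them.

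**Figure D3:**
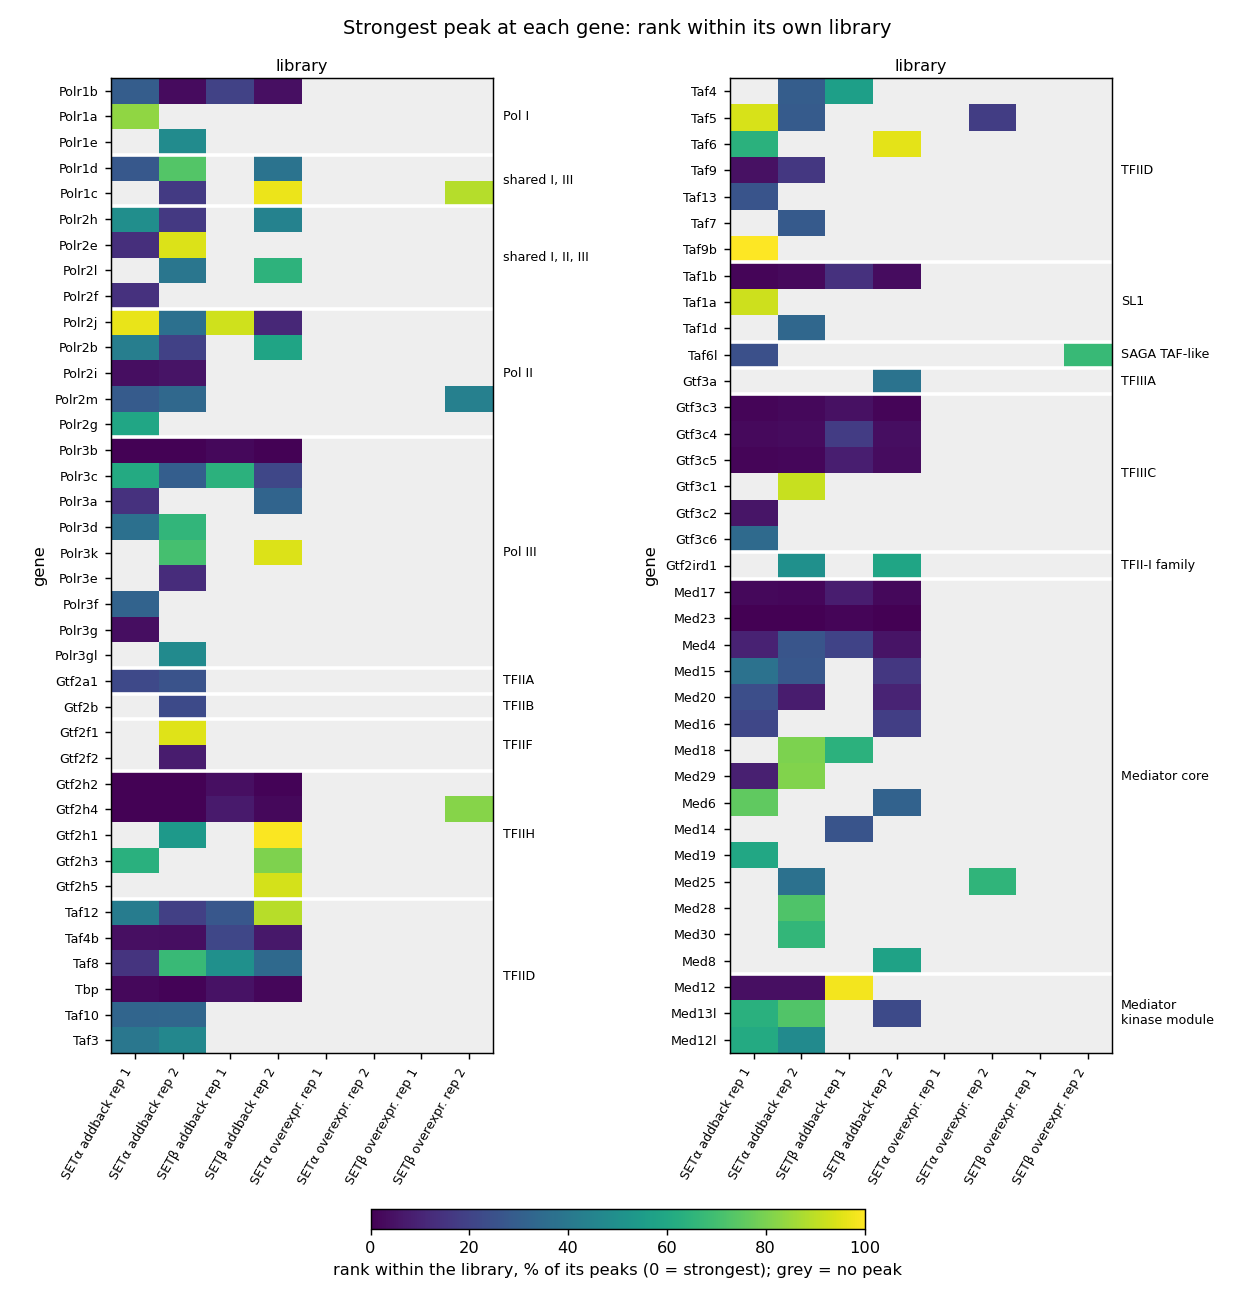
Each row is one of the 75 machinery genes with a peak in at least 1 addback library, grouped by complex, and each column is a library. Colour gives the rank of the strongest peak at the gene as a percent of all peaks of that library (0 is the strongest), and grey means no peak. Dark rows across the 4 addback columns mark the genes with strong peaks in each, such as Med23, Polr3b, Gtf2h2, Gtf2h4 and Tbp, and the overexpression columns hold 6 coloured cells in all.

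The first comparison of the design was between isoforms. In SET KO, SETα had a peak at 26.6 percentage points more of the machinery genes than SETβ, with 56.5% and 58.7% against 22.8% and 39.1%. Both SETα libraries lay above both SETβ libraries, and the difference exceeded the spread between replicates (pooled SD 8.22). Over all protein-coding genes the difference was 19.7 points. A test on 2 libraries against 2 cannot give an exact two-sided permutation p under 0.333, so none is given. SETα libraries also had longer lists. With the strongest 1343 peaks of each library, the size of the smallest list, SETα addback had a peak at 16 and 16 machinery genes and SETβ addback at 16 and 15, a difference of 0.54 points. With the strongest 2518, the size of the smaller SETβ addback list, the numbers were 18 and 18 against 21 and 19, and the difference turned to −2.17 points. Over all protein-coding genes the shares at this limit were 7.705% and 9.23% against 8.41% and 7.59%, so the SETα mean was not the lower one there. The limit cuts through 936 peaks of SETα replicate 2 with equal −log10 p and fold, and with none or all of them this library had a peak at 17 or 22 machinery genes. At the shorter limit the same choice gave 14 or 16 for SETα replicate 2 and 16 or 17 for SETβ replicate 1, so lists of equal length fix no order of the isoforms in SET KO.

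At equal length the machinery genes still stood above all genes in addback. The strongest 1343 peaks fell at 17.4%, 17.4%, 17.4% and 16.3% of the machinery genes in SETα replicates 1 and 2 and SETβ replicates 1 and 2. For all protein-coding genes the shares were 4.65%, 5.77%, 5.39% and 4.96%. The overexpression libraries had 0, 0, 0 and 1 machinery genes among their strongest 1343 peaks, against 0.535%, 0.645%, 0.338% and 0.681% of all genes, so these counts of 0 and 1 lie near the background.

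In the order of the deposited lists, 11 genes had a peak in both SETα addback libraries and in neither SETβ library, 12.0% against 10.1% of all protein-coding genes. These were Gtf2a1, Med12l, Med29, Polr2e, Polr2i, Polr2m, Polr3d, Taf3, Taf5, Taf9 and Taf10. The reverse pattern, a peak in a SETβ library and in no SETα library, was found at 4 genes, Gtf2h5, Gtf3a, Med8 and Med14, or 4.35% against 3.35%. Each of the 4 was listed in 1 SETβ library only. Both shares lie near those of all genes.

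In SET wild type, SETα minus SETβ was −1.09 percentage points, within the spread between replicates of 2.43. The second comparison was between backgrounds. For SETα, SET KO exceeded wild type by 56.5 points (pooled SD 1.54), and by 31.6 points over all protein-coding genes. For SETβ the difference was 28.8 points (pooled SD 8.44), and 12.3 points over all genes. In both isoforms each addback library had more machinery genes with a peak than each overexpression library, and the differences exceeded the spread between replicates. At equal list length, the strongest 1343 peaks, the differences were 17.4 points for SETα and 16.3 points for SETβ. Over all protein-coding genes the SETα shares at this length were 4.65% and 5.77% in SET KO against 0.535% and 0.645% in wild type. The SETβ shares were 5.39% and 4.96% against 0.338% and 0.681%. Equal length does not make the SETα lists alike, since most SETα overexpression peaks lie on chromosome 6, which holds only 2 members.

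The 6 overexpression peaks at machinery genes were weak. SETα replicate 2 listed a peak at Taf5, for a TFIID scaffold subunit, with −log10 p of 5.40 and rank 1405 of 7675, and at Med25, for a Mediator subunit bound by activators, with 3.56 and rank 5032. SETβ replicate 2 listed Polr2m at 4.14, Taf6l at 3.56, Gtf2h4 at 3.04 and Polr1c at 3.01, with ranks from 1245 to 2548 of 2869. The Gtf2h4 peak lay 195 bp after the start, where the addback summits lay 5 to 91 bp before it. The peak at Taf6l lay at the far end of the gene and within 1 kb of an end of Tmem179b, and that at Polr1c was shared with Yipf3. Only the Taf5 peak reached a q of at most 0.05.

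Within the addback lists, the median −log10 p of the strongest peak at a machinery gene was 5.44 in SETα replicate 1, against 4.79 over all protein-coding genes with a peak, and 5.70 in replicate 2, the same as over all genes. With SETβ it was 9.36 against 5.69 in replicate 1 and 5.27 against 4.61 in replicate 2. In the IDR lists the medians were 20.3 against 22.7 with SETα and 25.7 against 24.2 with SETβ. The median was thus higher at the machinery genes than at all genes with a peak in 3 of the 4 addback libraries and in the SETβ IDR list. Among genes with a peak in a single addback library, chosen here after their values were seen, Polr3g, for a polymerase III subunit known to be abundant in stem cells, had the highest −log10 p, 10.0 in SETα replicate 1. Its peak was shared with Mblac2, whose start faces it.

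Peaks lay at the starts of the genes. A start was listed for 80 of the 92 genes, and the strongest peak lay at it for 45 of 47 genes in SETα replicate 1, 48 of 49 in replicate 2, 19 of 19 in SETβ replicate 1 and 31 of 32 in replicate 2. The median summit lay 29, 15, 67 and 54 bp before the start in the same order. Summits within 250 bp of the start numbered 29, 31, 16 and 23. The ends were then counted separately, taking any peak within 1 kb of any listed start, also a start away from the gene's ends. The counts therefore differ from those above. On this count 60% and 65% of the 80 genes (48 and 52) had a SETα peak at the start, and 7.5% and 5% had one at the other end. With SETβ these shares were 23.8% and 41.3% at the start and 0% and 2.5% at the other end. Among 15496 protein-coding genes with a listed start, 34.8%, 32.8%, 8.96% and 18.9% had a peak at the start and 5.83%, 4.57%, 0.60% and 2.25% at the other end. The preference for starts was thus shared with genes in general.

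**Figure D4:**
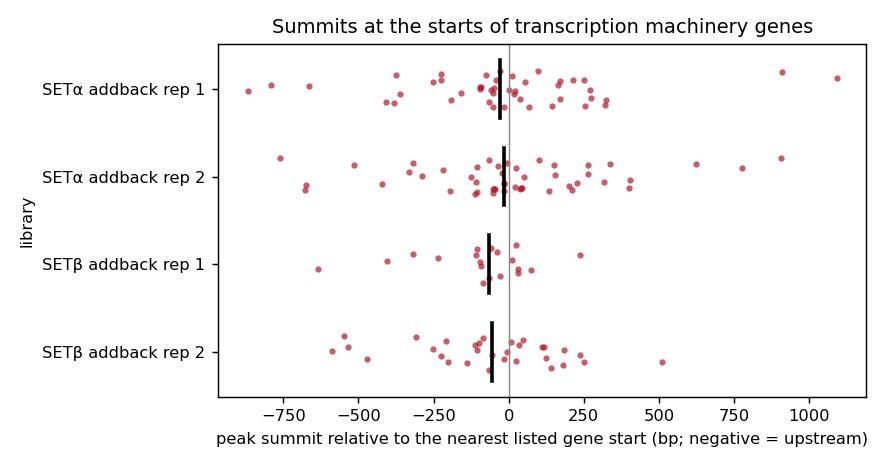
Points are the summits of the strongest peak at each machinery gene with a listed start and a peak there (x axis, bp from the nearest listed start, negative is upstream), with 1 row per addback library and a bar at the median. Medians lie 15 to 67 bp upstream of the start, and the points scatter up to about 1 kb to either side.

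Near the edge of the 1 kb window the calls rest on the window's size. In SETα replicate 1 the nearest peak to Polr1a lay 921 bp from a gene end and was counted, and the nearest to Gtf2ird1 lay 1115 bp away and was not. In SETα replicate 2 Med13l was counted at 981 bp and Gtf2h3 was not at 1149 bp. Between the window's edge and 2.5 kb lay the nearest peak of 7 and 5 genes with SETα and of 0 and 4 genes with SETβ.

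Machinery genes often stand close to another gene. Another protein-coding gene had an end within 1 kb of an end of 41 of the 92 genes, 44.6% against 23.7% of all protein-coding genes. The starts of 24 members faced or overlapped another gene's start within 1 kb. Among all protein-coding genes, those with such a neighbour had a SETα addback peak more often, with 53.8% and 52.3% in the replicates against 28.2% and 25.5% without one. Among the machinery genes the shares were 63.4% and 58.5% with a neighbour and 51.0% and 58.8% without. The machinery genes with no close neighbour were thus above all genes with no close neighbour in both SETα libraries.

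The promoters of the set are rich in CpG dinucleotides, which was measured over 250 bases before to 50 after the start for the 80 genes with a listed promoter. The median ratio of observed to expected CpG was 0.84, against 0.60 for 15496 protein-coding genes. With CpG-rich defined as a ratio of at least 0.6 and a GC content of at least 50%, 69 of the 80 machinery genes were CpG-rich, 86.3% against 47.3% of all. Peaks were also more frequent at CpG-rich promoters in general, at 55.2% and 52.8% of 7327 such genes in the SETα replicates and at 14.7% and 30.7% in the SETβ replicates of addback.

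Among CpG-rich genes alone, the machinery genes were close to the rest with SETα. They had a peak at 55.1% in SETα replicate 1, against 55.2% of all CpG-rich genes, and at 60.9% in replicate 2, against 52.8%. With SETβ the shares were 21.7% against 14.7% and 37.7% against 30.7%. In the IDR lists 5 of 69 machinery genes (7.25% against 4.69%) had a SETα peak and 7 (10.1% against 4.59%) a SETβ peak. The SETα excess over all genes was thus absent in 1 replicate and small in the other once CpG-rich promoters were compared. The 11 machinery genes with other promoters had a peak in 9, 7, 4 and 6 cases in the SETα and SETβ libraries, where 15.5%, 13.6%, 2.96% and 7.52% of such genes had one. Of the 11, Polr3b, Med16, Med19, Polr1a, Polr2m and Taf7l had a CpG ratio of at least 0.6 and missed the definition through GC content alone. The other genes were not matched to them in CpG ratio, so these shares may not compare like with like.

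The genes with the strongest peaks were not the richest in CpG. The 12 genes with an addback IDR peak and a listed promoter had a median ratio of 0.70, and 8 of them were CpG-rich. The machinery genes with a peak in 0, 1, 2, 3 and 4 addback libraries had medians of 0.82, 0.84, 0.87, 0.90 and 0.76. The medians thus rose from 0 to 3 libraries and were lowest at 4. The ranges of these groups overlapped widely, and a relation between the number of libraries with a peak and the CpG ratio was not tested. Gtf2h4, at 0.42, and Taf1b, at 0.46, had the lowest ratios of the IDR genes.

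**Figure D5:**
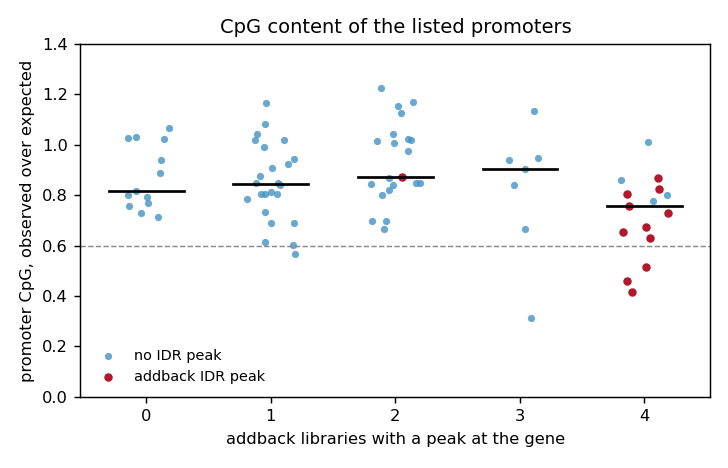
Points are the 80 machinery genes with a listed promoter. The x axis gives the number of addback libraries with a peak, the y axis the observed over expected CpG ratio of the promoter (no unit), bars are medians, and the dashed line marks 0.6. Medians run from 0.76 at 4 libraries to 0.90 at 3, and the genes with an IDR peak lie between 0.42 and 0.87.

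Motifs were counted on both strands of the same 300-base windows. The ETS motif CCGGAAG was found in 30 of 80 machinery promoters, 37.5% against 12.7% of all and 21.3% of CpG-rich promoters. Among the 12 IDR genes it was found in 5, and among the 13 machinery genes with no addback peak also in 5. Over the whole genome it was found in 239 of 512 genes with an addback IDR peak, 46.7%. The E-box CACGTG was found in 21.3% of the machinery promoters, against 8.71% of all and 12.99% of CpG-rich promoters, and in 1 of the 12 IDR genes. The GC box GGGCGG was found in 66.3% against 48.5% of all and 78.9% of CpG-rich promoters.

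The CCAAT box, searched as CCAAT, was found in 32.5% of the machinery promoters against 42.2% of all and 41.5% of CpG-rich promoters, and in 5 of the 12 IDR genes. The TATA box, searched as TATAAA, was found in 12.5% against 14.8% of all and 7.06% of CpG-rich promoters, and in none of the 12. Rarer motifs were the CRE TGACGTCA in 4 of 80 promoters (2.44% of all), the longer YY1 motif in 2 (0.99%) and the ZNF143 motif in 1, Gtf2h4 (0.44%). The NRF1 motif (1.48% of all) and the ZBTB33 motif (0.74%) were found in none. None of the 10 motifs contains another, and no motif was used to choose genes.

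Other genes of the same pathway that carry different symbols were taken from a list of 68, of which 56 were analysed. In addback a peak was listed at 57.1% and 60.7% of them for SETα and at 23.2% and 39.3% for SETβ, close to the values of the 92 machinery genes. Over all protein-coding genes these shares were 34.3%, 31.8%, 8.41% and 18.4%. In all 4 addback libraries 8 of the 56 had a peak (5.15% of all protein-coding genes), and in at least 1, 46 (47.5%). The IDR lists held 5 each (8.93%, against 2.78% of all genes with SETα and 2.62% with SETβ), 6 genes in all: Supt7l and Trrap of the coactivator SAGA, Supt5 and Nelfb, which act in pausing of polymerase II, Ssrp1 of the histone chaperone FACT, and Ccnc, the cyclin of the Mediator kinase. Supt7l had −log10 p of 45.5 and 33.5 with SETα and 49.8 and 21.5 with SETβ, and Nelfb had 25.6 and 37.4 with SETα and 32.7 and 33.2 with SETβ, so each was the higher one in 1 replicate of either isoform. TFIIH genes under other names had a peak in 5 and 4 of 5 cases in the SETα replicates and in 0 and 3 in the SETβ replicates. All 6 genes of the PAF1 elongation complex had a peak in SETα replicate 2, 3 in SETα replicate 1, and none with SETβ. The peaks at Paf1 are those also counted for Med29 and cannot be assigned to either gene. With 8.41% and 18.4% of all genes called with SETβ, 6 genes are too few to read an absence from. In overexpression, Crcp and Tcea1 had a peak in SETβ replicate 2 alone.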

How the data were processed

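HA-tagged SET was measured by chromatin immunoprecipitation and sequencing in 8 libraries with a peak list, 2 in each of 4 groups taken from the labels. Bowtie2, MACS2, deepTools and the builds GRCm38 and mm10 are named in the submitters' processing notes, without versions. The control library and the handling of reads with several matches are not given in the sources used here. The deposited lists give each peak's fold enrichment as a linear ratio to the local background, and its −log10 p and −log10 q as the authors' peak caller wrote them. Library lists held peaks with p of at most 0.00499. The deposited score of the IDR lists is the −log10 of the IDR, at most 0.0499 as an IDR, and the −log10 p of a merged peak in them is the smaller of both replicates' values. These values are the authors' and were used only to describe, rank or filter peaks within a list.

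Genes, starts and promoters came from RefSeq tables of GRCm38.p6, and promoters matched 80 of 92 members by gene ID. A peak was assigned to every gene with an end within 1 kb. Ranks follow −log10 p and then fold, and equal peaks follow their position in the genome. Counts over members stand beside the same count over all protein-coding genes, with Wilson 95% intervals and no test. The members and lists were chosen with earlier results of these data known. Genes named by value were those with an IDR peak, those with an overexpression peak, and the 10 strongest with a peak in all 4 addback libraries. Members with no peak are given by name, and 1 item is not reported here. Promoters were those of members in both addback IDR lists whose IDR peaks overlap the promoter window, the first 6 by mean −log10 p. The alternatives were the window, the summit, stricter thresholds, equal numbers of peaks, starts alone, no chromosome 6, no close neighbours, leaving out each replicate and pairing by replicate number. CpG-rich promoters alone and the size of the smallest addback list were added after the data were seen. The assignment was tested on simulated peaks, where 200 of 200 planted peaks were found and 0 of 200 placed outside the window were called. Python 3.11.15, numpy 2.4.6, pandas 2.3.3, scipy 1.17.1 and matplotlib 3.10.9 were used.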

Additional observations from a re-analysis of the deposited data

How the results depend on the processing

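In the main setting the mean number of machinery genes with a peak was 53 with SETα addback and 28.5 with SETβ addback, and their share was 1.75 and 2.42 times that of all protein-coding genes. Each of the 4 addback libraries kept a share above that of all genes under each alternative, except SETα replicate 1 among CpG-rich promoters alone (55.1% against 55.2%). There the ratios were 1.07 and 1.36, the SETβ overexpression mean was 1, and 5 and 7 genes remained in the addback IDR lists. With a window of 250 bp the ratios were 2.03 and 3.23, the overexpression means 0 and 1, and the SETα background difference 47.3 points. That difference was 63.0 points with 2.5 kb, 54.3 with summits and 61.25 with starts alone. With q of at most 0.05 the ratios were 1.89 and 3.08, the SETβ addback mean 17, the overexpression means 0.5 and 0, the background differences 42.9 and 18.5 points, and the wild-type isoform difference reversed to 0.54. With −log10 q of at least 5 the addback means were 14.5 and 11.5, the ratios 3.78 and 4.70, the overexpression means 0 and 0, the SET KO isoform difference 3.26 points and the background differences 15.8 and 12.5. With the strongest 1343 peaks the means were 16 and 15.5, the ratios 3.38 and 3.26, the overexpression means 0 and 0.5, the SET KO isoform difference 0.54 and the background differences 17.4 and 16.3. With the strongest 2518 the SETα mean was 18, its ratio 2.33, its overexpression mean 0.5, its background difference 19.02, and the SET KO isoform difference reversed to −2.17. Without genes that have a close neighbour the means were 28 and 16 of fewer genes, the ratios 2.06 and 3.41, the overexpression means 0.5 and 0.5, and the SETα background difference 53.9. Leaving out each replicate gave means of 0 to 2 with SETα and 0 to 4 with SETβ overexpression, a wild-type isoform difference of −3.26 to 1.09 and a SET KO isoform difference of 18.5 to 34.8 points. The wild-type difference reversed without SETβ overexpression replicate 2, which held each of the 4 SETβ overexpression genes. Without chromosome 6 the share of all genes beside the SETα overexpression counts fell from 0.983% and 1.9% to 0.105% and 0.867%, and the members' counts there stayed 0 and 2. The replicate block, pairing libraries by number, left the differences at 26.6, −1.09, 56.5 and 28.8 points, and the libraries share only a number in the labels. Of the IDR genes, Med4 and Taf4b kept a peak in 1 and 2 addback libraries at −log10 q of at least 5, and Polr1b in 3. The cause of these changes was not tested beyond the fewer peaks or genes that a setting leaves. The unknown read depth limits every absent call.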
